A study of Mus musculus with 24 samples.

Results

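Sh3bgr, Stap2, Ackr4 and Scnn1g were followed across 24 single-colour Agilent arrays of mouse cerebellum. They were chosen because their levels were strongly lower in Derlin-1 knockouts (KO) without 4-phenylbutyrate (4PBA), so their values in that comparison describe the choice and carry no test. Every probe whose transcript accession maps to 1 of the 4 genes was taken, which gave 5 of the 56605 probes on the array: A_55_P2647198 and A_51_P127718 for Sh3bgr, A_55_P2852578 for Stap2, A_52_P153291 for Ackr4 and A_51_P245558 for Scnn1g. All 5 passed the filter on dim probes, and each was well above background on all 24 arrays except the Scnn1g probe, which was not on replicate 2 of the numbered Derlin-1 KO with 4PBA.

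The cerebella came from C57BL/6 mice on postnatal day 28. Controls carried floxed Derl1 or floxed Derl2 alleles, and in the KO mice Cre recombinase under the nestin promoter, which is active in neural progenitors, acted on the same alleles. Treated mice received 200 mg/kg of the chemical chaperone 4PBA intraperitoneally each day between day 14 and day 28, and vehicle mice received water. The 12 groups of 2 arrays formed 3 sets of 8 arrays, each set on a slide of its own: a Derlin-1 series with numbered replicates (control and KO, each with vehicle or 4PBA), a Derlin-1 series with lettered replicates (control and KO, each with 4PBA or with no injection named, called untreated here), and the Derlin-2 line with numbered replicates (control and KO, each with vehicle or 4PBA). Where only replicate numbers or letters separate arrays of a group, the labels do not say whether they are separate animals, and p-values then measure the spread between arrays, which may be technical. Within every slide the group and the array's place on the slide cannot be told apart. Levels are log2 processed intensities minus the 75th percentile of that array, and they rank groups within a probe, never one probe against another. The share of spots well above background ran from 57.7% to 68.4%, and with 2 arrays a group their number limits the precision. Granule neuron and Purkinje cell markers were examined for the labelled tissue, and 10 of 10 genes of each list were well above background on all 24 arrays.

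SH3BGR is a small protein with a thioredoxin-like fold and an SH3-binding motif, best known from heart and skeletal muscle. STAP2 is a cytoplasmic adaptor with a pleckstrin homology and an SH2-like domain that binds STAT3 and other signalling proteins downstream of cytokine receptors. ACKR4 is an atypical chemokine receptor: it binds and takes up the chemokines CCL19, CCL21 and CCL25 without signalling through G proteins. SCNN1G is the gamma subunit of the epithelial sodium channel ENaC, which lets sodium cross the apical membrane of kidney, lung and other epithelia. No shared pathway links the 4 proteins in textbooks, and they were grouped here by the direction and size of their change.

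Promoter windows are shown because the 4 transcripts were low on the same arrays. RefSeq windows for assembly GRCm38.p6 were matched by symbol for 3 of the 4 genes, with 4 windows in all; Sh3bgr had no entry. Each window holds the 250 bases before an annotated start, written 5′ to 3′ on the gene's strand, with matched motif letters in capitals. The windows lie at chr17:56005607-56005856 (minus strand) for Stap2, chr9:104126644-104126893 (minus strand) for Ackr4 and chr7:121734229-121734478 (plus strand) for Scnn1g.
Stap2: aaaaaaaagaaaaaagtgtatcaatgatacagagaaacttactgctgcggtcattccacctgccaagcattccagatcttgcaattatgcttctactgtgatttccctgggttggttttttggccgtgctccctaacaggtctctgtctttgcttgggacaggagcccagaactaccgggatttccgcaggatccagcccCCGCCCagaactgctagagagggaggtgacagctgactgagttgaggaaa
Ackr4: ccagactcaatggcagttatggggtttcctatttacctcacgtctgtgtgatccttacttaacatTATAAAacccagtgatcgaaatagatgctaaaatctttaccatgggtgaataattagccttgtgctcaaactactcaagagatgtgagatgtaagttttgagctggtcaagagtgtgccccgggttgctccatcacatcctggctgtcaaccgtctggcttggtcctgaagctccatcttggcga
Scnn1g: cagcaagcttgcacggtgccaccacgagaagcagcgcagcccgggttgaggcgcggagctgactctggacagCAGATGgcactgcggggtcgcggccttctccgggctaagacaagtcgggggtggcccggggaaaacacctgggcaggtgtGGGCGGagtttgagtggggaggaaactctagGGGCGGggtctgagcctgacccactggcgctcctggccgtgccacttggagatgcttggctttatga

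Base composition differed between the windows: GC made up 65.2% of the Scnn1g window, 45.2% of the Ackr4 window and 48.8% of the printed Stap2 window, against a median of 52.4% over 32851 windows of 27025 genes. Of 10 motifs searched on both strands, 3 had a match in the windows of the 3 genes. The GC box GGGCGG, present in 32.7% of all windows, was found in the Scnn1g window at 98 and 67 bases before the start, and on the opposite strand of the printed Stap2 window at 50 bases. TATAAA, present in 12.4% of all windows, was found in the Ackr4 window at 185 bases. CAGATG, an E-box that NeuroD factors can bind and present in 14.4% of all windows, was found in the Scnn1g window at 178 bases. The letters of the other 7 motifs were not in these windows: the CARE of ATF4 (TGATGNAAT, 0.816% of all windows), the ERSE (0.113%), the UPRE (TGACGTGG, 0.563%), the CRE (TGACGTCA, 1.55%), CCAAT (33.8%, overlapping the ERSE), the STAT motif (TTCNNNGAA, 7.02%) and the sterol response element (0.0731%). The other Stap2 window held no match to any of the 10.

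Array labels were examined before the results. The Derl1 probe did not separate Derlin-1 KO from control arrays, with levels from 0.14 to 0.94 on the 8 KO arrays and from 0.76 to 1.22 on the 8 controls, and whether it lies inside the deleted stretch is not given in the sources used here. Derl3, the third member of the family, separated 7 of the 8 Derlin-1 KO arrays (-0.63 to 0.37) from the 8 controls (-3.14 to -1.69), while on the library labelled Derlin-1 KO 4PBA b it stood at -2.27. In the Derlin-2 line Derl2 stood at 1.72 on the library labelled Derlin-2 KO vehicle 1, against 1.40 to 1.58 on the 4 controls and 0.18 to 0.48 on the 3 other KO arrays, while its Derl3 level of -1.85 lay above the 4 controls (-3.03 to -2.75) and within the 3 other KO arrays (-1.96 to -0.61). These libraries, also called arrays, are therefore named by their labels, the first of them as array b, and results that rest on them are given with and without them.

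**Figure D1:**
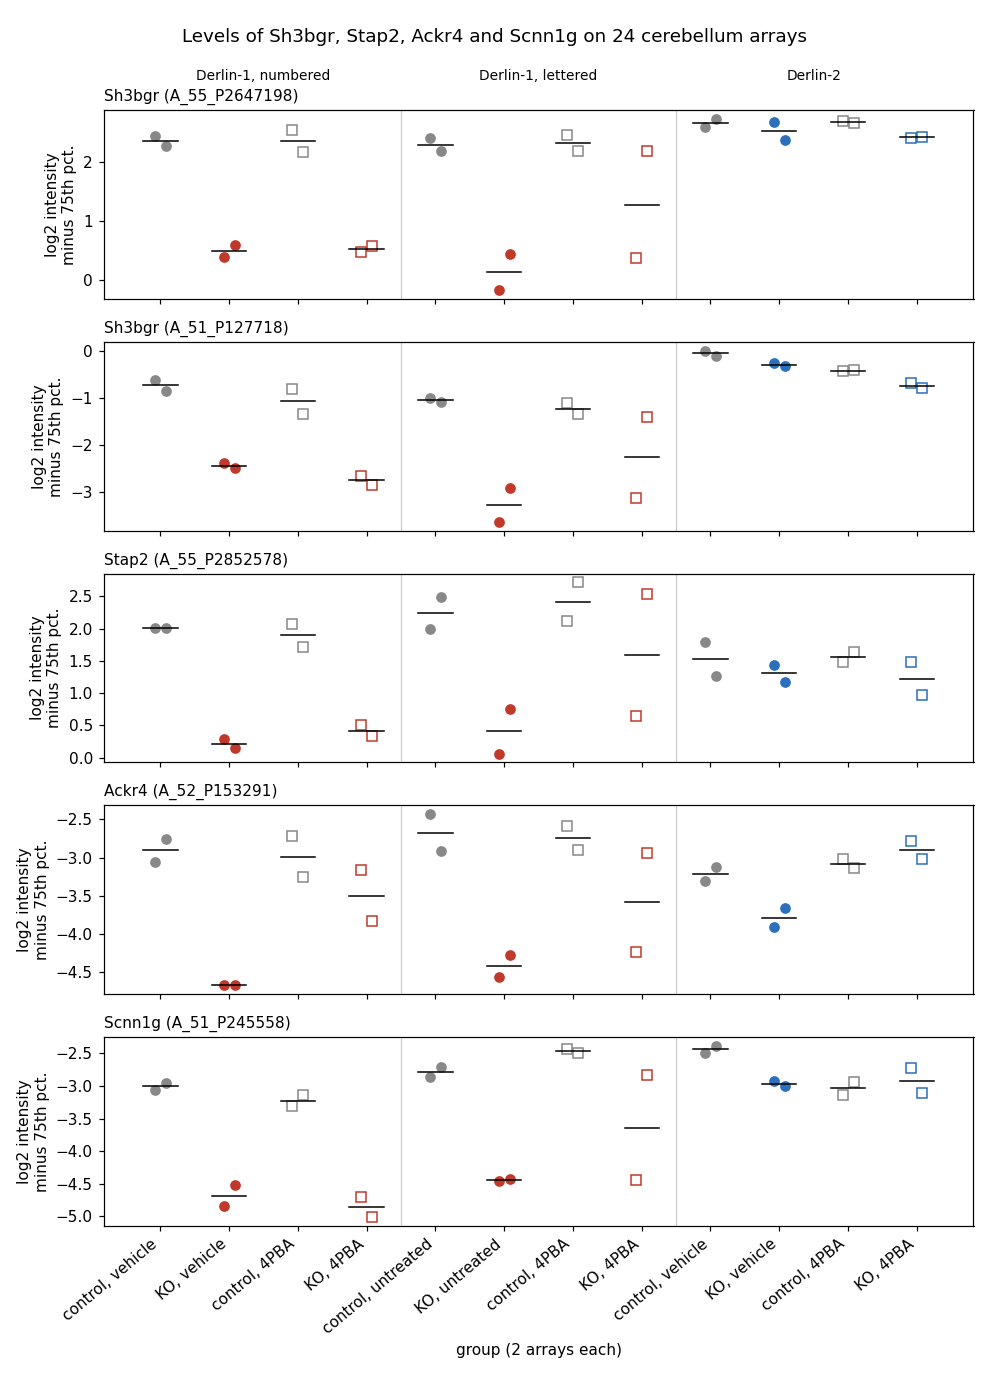
Levels of the 5 probes (log2 intensity minus the array's 75th percentile, vertical axis) on each of 24 arrays by group; circles are arrays without 4PBA, squares arrays with 4PBA, grey controls, red Derlin-1 KO, blue Derlin-2 KO, and the black line is the mean of the 2 arrays. On the Sh3bgr, Stap2 and Scnn1g probes the red points lie below all others except array b (labelled Derlin-1 KO 4PBA b), on the Ackr4 probe they overlap them, and array b for the first Sh3bgr probe has 2.18 against 2.18 to 2.46 on the 4 lettered controls.

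Without 4PBA, Sh3bgr had the lowest change of the 4. On its brighter probe (A_55_P2647198) the vehicle controls of the numbered series had 2.44 and 2.27 and the KO arrays 0.39 and 0.60; the untreated controls of the lettered series had 2.40 and 2.18 and the KO arrays -0.17 and 0.45. The KO and control arrays did not overlap in either series, and lettered array a was the lowest of the 4 KO arrays. Averaged over both series the level in the KO was lower by a log2 change of -2.004 (SE 0.27), a 4.01-fold difference, or 24.9% of the control level. The other Sh3bgr probe (A_51_P127718) had -0.60 and -0.84 in the numbered controls, -2.39 and -2.50 in the numbered KO, -1.003 and -1.09 in the lettered controls and -3.64 and -2.92 in the lettered KO. It thus gave the same order of groups, with a log2 change of -1.98 (SE 0.27). Over the 24 arrays, with each slide's mean subtracted, the pair of Sh3bgr probes had a Pearson correlation of 0.97; the probes share every array and its RNA.

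Stap2 had 2.02 and 2.02 in the numbered vehicle controls and 0.29 and 0.15 in the KO. The lettered untreated controls had 1.99 and 2.49 and the KO arrays 0.06 and 0.76. The 4 KO arrays lay below the 4 controls, and the log2 change was -1.82 (SE 0.31), a 3.52-fold difference.

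Ackr4 had -3.06 and -2.75 in the numbered vehicle controls and -4.67 on both KO arrays. The lettered untreated controls had -2.43 and -2.92 and the KO arrays -4.57 and -4.27. Again the groups did not overlap, and the log2 change was -1.76 (SE 0.24), a 3.38-fold difference.

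Scnn1g had -3.05 and -2.95 in the numbered vehicle controls and -4.85 and -4.53 in the KO. The lettered untreated controls had -2.86 and -2.70 and the KO arrays -4.46 and -4.43. The 4 KO arrays were all lower than the 4 controls, with a log2 change of -1.67 (SE 0.24), a 3.19-fold difference. Ackr4 and Scnn1g have dim probes, and their size depended on the background correction: with normexp correction the changes were -0.98 for Ackr4 and -0.86 for Scnn1g.

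Both series gave like sizes. In the numbered series the log2 changes were -1.86 for Sh3bgr, -1.80 for Stap2, -1.77 for Ackr4 and -1.69 for Scnn1g. In the lettered series they were -2.15, -1.83, -1.75 and -1.66 in that order. As background, limma called 1800 of 16935 genes in this comparison (10.6%) at an adjusted p under 0.05, of which 50.6% were lower; under median scaling 69.6% of the called genes were lower. The lower calls made up 5.37% and the higher calls 5.26% of the genes tested. Among called genes well above background on all 8 arrays, the 4 genes held places 1, 3, 4 and 5 in the order of falls. Pappa, which encodes a protease of IGF-binding proteins, lay between them at -1.93 (SE 0.45). Just outside were Cabp2, a calcium-binding protein, at -1.67, Car4, a carbonic anhydrase, at -1.67 and Sema3e, a secreted guidance cue, at -1.57; Scnn1g and Cabp2 differed by far less than their SE. These places come from the values that chose the genes.

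Bulk RNA cannot tell fewer cells of a type from less RNA per cell. In the same comparison 20 of 102 tested markers of 13 cell types were called. Summed levels of a list are given as multiples of the array's 75th percentile, for arrays without 4PBA within a series. Of the microglia list 7 of 10 genes were higher, and its sum was 84.1 and 86.4 in the KO against 74.2 and 79.9 in controls of the numbered series and 67.3 and 68.2 against 55.9 and 57.9 in the lettered series. Of the granule neuron list 4 of 10 were lower, and its sum was 430 and 438 against 546 and 553 in the numbered series and 345 and 354 against 428 and 430 in the lettered series. Both lists thus separated KO from control arrays in each series. Of the molecular layer interneuron list 4 of 8 were lower, and its sum was 123 on both KO arrays against 120 and 130 in the numbered series and 116 and 123 against 142 and 158 in the lettered series. Genes of the meninges and fibroblast list (2 of 8), of the astrocyte list (1 of 8) and of the Golgi cell list (1 of 5) were higher, and 1 of 5 Golgi cell genes was lower. Of the striated muscle list, none of 8 tested genes was called by limma (1 had an unadjusted p under 0.05). Of the 8 tested genes 5 were well above background on all 24 arrays. Its genes Ckm and Myh1, which were not tested, were well above background on 2 and 1 of 24 arrays. The sum of the list was 1.09 and 1.26 in the KO against 0.98 and 0.997 in controls of the numbered series. In the lettered series it was 1.28 and 1.62 against 1.07 and 1.09. The part of these cell types in the levels of the 4 genes was not tested.

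Under 4PBA all 4 genes were lower in the Derlin-1 KO, none passed the adjusted threshold with all arrays, and all 4 passed it without array b, labelled Derlin-1 KO 4PBA b. These 8 arrays were not used to choose the genes. Limma called 8 of 16934 genes here (0.0472%, 0.0236% lower), and 0 of the 4 genes, although all 4 had an unadjusted p under 0.05. Without array b it called 1047 genes (6.18%, 2.67% lower), among them all 4. Leaving out array b, or KO array a in its place, leaves 1 lettered KO array, which is then assumed to vary like the other groups. Without array b the 3 remaining KO arrays lay below the 4 controls with 4PBA for Sh3bgr, Stap2 and Scnn1g, and 4.19% of all genes did so. None of the 102 cell type markers was called by limma with all arrays (30 had an unadjusted p under 0.05), and 23 were called without array b, a fit of the markers that was added after the data were seen. These were lower for 4 of 10 granule neuron and 5 of 8 molecular layer interneuron genes, higher for 7 of 10 microglia and 3 of 8 meninges and fibroblast genes, and for Golgi cells 1 lower and 1 higher of 5, with 1 Purkinje cell and 1 astrocyte gene higher. In the numbered series, which does not hold array b, the summed granule neuron level was 405 and 433 in the KO against 509 and 520 in controls, and that of meninges and fibroblasts 27.6 and 28.9 against 21.2 and 22.6, both without overlap. There the interneuron sums were 112.0 and 112.6 against 119.2 and 134.9, and the microglia sums, 76.5 and 81.5 against 66.4 and 81.0, overlapped. The summed granule neuron level was 429 on array b, 325 on KO array a and 396 and 419 on the lettered controls with 4PBA. For microglia the sums were 57.3 on array b, 64.0 on array a and 58.0 and 60.5 on those controls, for meninges and fibroblasts 19.5, 28.1, and 23.0 and 25.1, and for interneurons 140.9, 128.0, and 132.1 and 166.6. Array b was thus above KO array a for the granule neuron and interneuron lists and below it for the microglia and meninges lists, and the part of these cell types in the levels of the 4 genes was not tested.

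For Sh3bgr the numbered controls with 4PBA had 2.53 and 2.16 on the brighter probe and the KO arrays 0.47 and 0.57. The lettered controls had 2.46 and 2.18, KO array a 0.38 and the array labelled KO b 2.18. Of the 4 KO arrays 3 were thus far below every control, and array b was at the level of the lower controls. The log2 change was -1.43 (SE 0.27, adjusted p 0.0892), and without array b Sh3bgr fell by 1.88 on the log2 scale (adjusted p 1.44e-05). On the same probe, without array a in place of b, the value was -0.98, with array b then the only lettered KO array. The other Sh3bgr probe had -0.80 and -1.33 in numbered controls, -2.66 and -2.84 in the numbered KO, -1.11 and -1.33 in lettered controls, -3.13 on KO array a and -1.39 on array b. It gave -1.37 (SE 0.27, adjusted p 0.124 over all probes) and -1.80 without array b (adjusted p 1.01e-04).

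Stap2 had 2.07 and 1.72 in the numbered controls with 4PBA and 0.51 and 0.33 in the KO. The lettered controls had 2.12 and 2.72, KO array a 0.65 and the array labelled KO b 2.54, between the 2 lettered controls. The log2 change was -1.15 (SE 0.31, adjusted p 0.166), and without array b it was -1.62 (adjusted p 8.5e-04).

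Ackr4 differed from the other 3 in the numbered series. Its controls with 4PBA had -2.72 and -3.26 and its KO arrays -3.17 and -3.83, so that KO and control arrays overlapped. The lettered controls had -2.58 and -2.90, KO array a -4.23 and the array labelled KO b -2.94. The log2 change was -0.68 (SE 0.24, adjusted p 0.249), and without array b it was -1.001 (adjusted p 0.00694). Within the numbered series, which does not hold array b, the change was -0.51 (SE 0.33, adjusted p 0.628).

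Scnn1g had -3.30 and -3.14 in the numbered controls with 4PBA and -4.70 and -5.01 in the KO, where the second value was not well above background. The lettered controls had -2.44 and -2.50, KO array a -4.44 and the array labelled KO b -2.83. The log2 change was -1.40 (SE 0.24, adjusted p 0.0589), and without array b Scnn1g fell by 1.80 on the log2 scale (adjusted p 2.46e-06). Without array a in place of b the change was -1.00003, with array b then the only lettered KO array. With all arrays the adjusted p was 0.0371 both under quantile normalization and under median scaling. Under the alternatives that left out no single array, the Scnn1g change ran from -1.63 to -0.66.

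In the numbered series alone the KO arrays with 4PBA lay below both controls for Sh3bgr, Stap2 and Scnn1g, 3 of the 4 genes, where 23.5% of all genes did so. The changes there were -1.83 for Sh3bgr, -1.48 for Stap2 and -1.63 for Scnn1g, with adjusted p-values of 0.109, 0.217 and 0.0935. In the lettered series, which holds array b, the KO arrays lay below both controls for Ackr4, Scnn1g and Sh3bgr, where 12.1% of all genes did so, and Stap2 overlapped. For Sh3bgr array b and the lower control with 4PBA were both at 2.18 to 2 decimals. The lettered changes were -1.04 for Sh3bgr, -0.83 for Stap2, -0.85 for Ackr4 and -1.17 for Scnn1g, each with an adjusted p of 1.0.

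**Figure D2:**
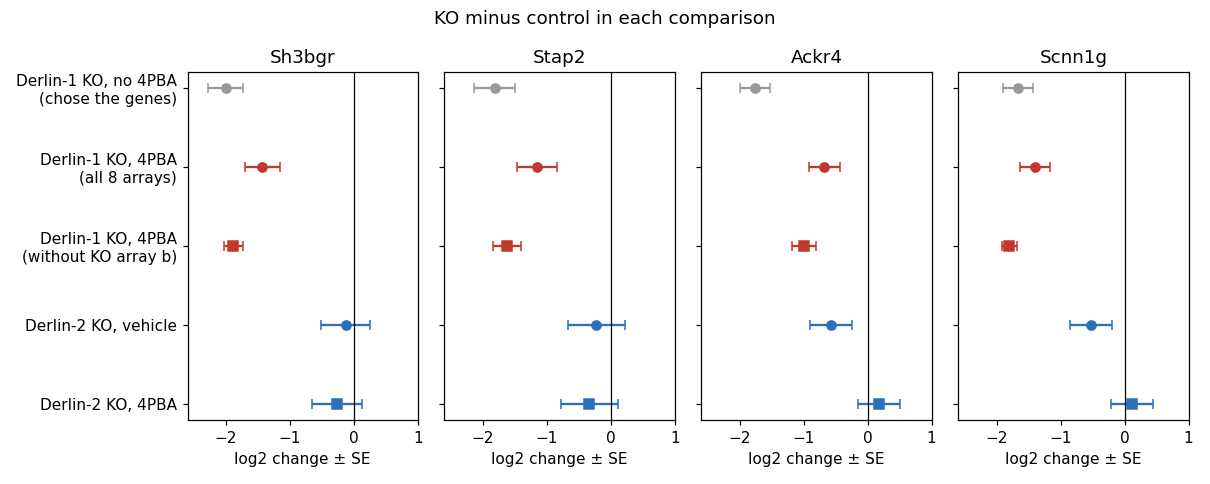
Change in each of the 4 genes (log2 KO minus control, horizontal axis, bars are 1 SE) in 5 comparisons; grey marks the comparison that chose the genes, red the Derlin-1 line under 4PBA with all 8 arrays (circle) and without array b (square), blue the Derlin-2 line with vehicle (circle) and 4PBA (square). The red squares lie from -1.88 for Sh3bgr to -1.001 for Ackr4, while the blue points lie between -0.57 and 0.18.

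The arrays with and without 4PBA in the Derlin-1 line share the comparison that chose the genes, so their levels are given side by side without a test. In numbered KO arrays Ackr4 was -4.67 on both vehicle arrays and -3.17 and -3.83 with 4PBA, a difference of 1.17 (SE 0.33). For the other 3 genes the same difference was 0.03 for Sh3bgr on its brighter probe (-0.31 on the other), 0.20 for Stap2 and -0.17 for Scnn1g. In the lettered KO the differences ran from 0.80 for Scnn1g to 1.18 for Stap2, with array b alone at the level of controls. In Derlin-1 controls, over both series, 4PBA and no 4PBA differed by -0.08 to 0.05 in the 4 genes, and by -0.26 on the other Sh3bgr probe. For Scnn1g and Stap2 these averages join opposite signs: the mean Scnn1g level was -3.22 with 4PBA and -3.00 without in the numbered controls and -2.47 and -2.78 in the lettered controls, and that of Stap2 was 1.89 and 2.02 in the numbered and 2.42 and 2.24 in the lettered controls.

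In the Derlin-2 line with vehicle none of the 4 genes passed the limma test, and none had an unadjusted p under 0.05; limma called 20 of 16934 genes (0.118%). Sh3bgr had 2.58 and 2.72 in controls, 2.68 on the array labelled KO vehicle 1 and 2.37 on KO vehicle 2. Stap2 had 1.80 and 1.26 in controls and 1.44 and 1.17 in the KO. On these probes both genes overlapped between the groups, and the changes were -0.13 (95% interval -0.95 to 0.70) for Sh3bgr and -0.22 (-1.18 to 0.73) for Stap2. The other Sh3bgr probe had 0.01 and -0.10 in controls and -0.25 and -0.32 in the KO, without overlap, a change of -0.24 (-1.06 to 0.59). Ackr4 had -3.30 and -3.13 in controls and -3.91 and -3.66 in the KO. Scnn1g had -2.50 and -2.38 in controls and -2.93 and -3.01 in the KO. In these 2 genes both KO arrays lay below both controls, as in 24.5% of all genes. The changes were -0.57 (interval -1.29 to 0.14) for Ackr4 and -0.53 (-1.24 to 0.19) for Scnn1g. Without the array labelled KO vehicle 1 the 4 changes were -0.28 for Sh3bgr, -0.36 for Stap2, -0.45 for Ackr4 and -0.57 for Scnn1g, none of them called (82 genes called, 0.487%).

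With 4PBA the Derlin-2 line gave no call among the 4 genes by limma either, and none had an unadjusted p under 0.05 (23 of 16925 genes called, 0.136%). Sh3bgr had 2.69 and 2.66 in controls and 2.41 and 2.42 in the KO, Stap2 1.49 and 1.63 against 1.49 and 0.96, Ackr4 -3.02 and -3.14 against -2.79 and -3.02, and Scnn1g -3.13 and -2.93 against -2.72 and -3.11. The Sh3bgr and Stap2 KO arrays lay below both controls, as in 24.5% of all genes, and the Scnn1g groups overlapped. For Stap2 the higher KO array and the lower control were both at 1.49 as rounded, so they were nearly level. In Ackr4 the lower KO array was level with the higher control. The other Sh3bgr probe had -0.42 and -0.40 in controls and -0.69 and -0.78 in the KO, a change of -0.32 (interval -1.15 to 0.51). The changes were -0.26 (interval -1.09 to 0.56) for Sh3bgr, -0.33 (-1.29 to 0.62) for Stap2, 0.18 (-0.54 to 0.89) for Ackr4 and 0.11 (-0.60 to 0.83) for Scnn1g. The intervals for Sh3bgr and Stap2 in both Derlin-2 comparisons reach down to -0.95 or lower, so these arrays leave room for changes of that size.

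The KO effects of the lines under 4PBA were set against each other in the same model, where limma called 11 of 16924 genes (0.065%) and none of the 4. The Derlin-1 effect minus the Derlin-2 effect was -1.17 for Sh3bgr (SE 0.47, unadjusted p 0.0261 over the 24-array limma fit), -0.82 for Stap2 (SE 0.54), -0.85 for Ackr4 (SE 0.41) and -1.52 for Scnn1g (SE 0.41, unadjusted p 0.00231 in the same limma fit). Adjusted p-values were 0.537 for Scnn1g and 1.0 for the other 3. Without array b the differences were -1.62 for Sh3bgr (adjusted p 0.00877) and -1.92 for Scnn1g (adjusted p 3.93e-04), both past the threshold, and -1.29 for Stap2 (adjusted p 0.176) and -1.18 for Ackr4 (adjusted p 0.137), which were not (109 genes called, 0.644%). The lines also differ in slide, so line and slide cannot be told apart for levels, while each effect was taken within a slide.

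4PBA against vehicle within the Derlin-2 line, averaged over controls and KO, gave changes of -0.04 for Sh3bgr, -0.02 for Stap2, 0.51 for Ackr4 and -0.27 for Scnn1g. The Sh3bgr probes differed here: the value of -0.04 is that of the brighter probe, and the other probe, with both 4PBA arrays below both vehicle arrays in controls and in the KO, gave -0.41 (95% interval -0.99 to 0.18, adjusted p 0.626 over all probes). None was called by limma (15 of 16924 genes called, 0.0886%). Ackr4 had an unadjusted p of 0.0486 in the limma fit and an adjusted p of 0.528; it was 0.14 higher with 4PBA in controls and 0.89 higher in the KO. The Scnn1g value also averages unlike parts, -0.59 in controls, where both 4PBA arrays lay below both vehicle arrays, and 0.05 in the KO. Without the array labelled KO vehicle 1 the changes were 0.03 for Sh3bgr on its brighter probe, 0.04 for Stap2, 0.45 for Ackr4 and -0.25 for Scnn1g.

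Across all groups, the levels of 3 of the 4 genes on the Derlin-1 KO arrays other than array b lay apart from the rest. On those 7 arrays Sh3bgr ran from -0.17 to 0.60 against 2.16 to 2.72 on the 16 control and Derlin-2 arrays, Stap2 from 0.06 to 0.76 against 0.96 to 2.72, and Scnn1g from -5.01 to -4.43 against -3.30 to -2.38. The other Sh3bgr probe ran from -3.64 to -2.39 against -1.33 to 0.01. These 3 of 4 genes did not overlap (0.985% of all genes), and because 4 of the 7 KO arrays chose the genes, nothing is read from that count. Ackr4 ran from -4.67 to -3.17 on the KO arrays and from -3.91 to -2.43 on the rest, and so overlapped. Among the 16 control and Derlin-2 arrays the group means of Sh3bgr ran from 2.29 ± 0.16 (SD, n = 2) in lettered untreated controls to 2.68 ± 0.02 in Derlin-2 controls with 4PBA. Those of Stap2 ran from 1.23 ± 0.37 in the Derlin-2 KO with 4PBA to 2.42 ± 0.43 in lettered controls with 4PBA. All 4 Derlin-2 group means of Stap2 were below all 4 Derlin-1 control means, a difference that line and slide share. The Ackr4 means ran from -3.79 ± 0.18 in the Derlin-2 KO with vehicle to -2.67 ± 0.34 in lettered untreated controls, and the Scnn1g means from -3.22 ± 0.11 in numbered controls with 4PBA to -2.44 ± 0.08 in Derlin-2 controls with vehicle (SD, n = 2 each).

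The 8 arrays that chose the genes fix much of how the 4 genes vary together. With each slide's mean subtracted, Pearson correlations between pairs of the 4 genes ran from 0.80 (Ackr4 with Scnn1g) to 0.95 (Sh3bgr with Stap2 and with Scnn1g) over 24 arrays that share slide, scaling and RNA. Over the 16 arrays outside the choice they ran from 0.66 (Stap2 with Ackr4) to 0.93 (Sh3bgr with Scnn1g), with 3 low Derlin-1 KO arrays among them. Over the 16 control and Derlin-2 arrays alone they ran from -0.10 (Stap2 with Ackr4) to 0.33 (Stap2 with Scnn1g).

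Other genes with a like pattern were taken as the 5 per gene with the highest Pearson correlation over the 24 arrays after the slide mean was subtracted, among 14263 genes well above background on all arrays. The 20 places held 15 genes. Over the 16 arrays outside the choice, which were also used to pick these genes and so are no separate check, the correlations were 0.96 to 0.98 in the Sh3bgr list, 0.92 to 0.95 in both the Stap2 and the Scnn1g list, and 0.78 to 0.84 in the Ackr4 list. Sema3e was in the list of Sh3bgr (0.99), Scnn1g (0.95) and Stap2 (0.95). It had -2.10 to -1.67 on Derlin-1 KO arrays without 4PBA, -1.83 to -0.32 on those with 4PBA and -0.34 to -0.11 on the 8 Derlin-1 controls, and the array labelled KO 4PBA b held the -0.32. Mmp17, a membrane-anchored metalloproteinase, and Grm8, a metabotropic glutamate receptor, were in the lists of Sh3bgr (0.97 each) and Stap2 (0.96 and 0.95). Plekha5, a pleckstrin homology domain protein, was in those of Sh3bgr (0.97) and Ackr4 (0.89). The rest of the Sh3bgr list was Plch1, a phospholipase C (0.98), and the rest of the Stap2 list was Jph4, a junctophilin (0.96), and Aifm3 (0.95). Scnn1g was also followed by Mybpc3, a myosin-binding protein (0.95), Lypd6 (0.95), the sodium/potassium/calcium exchanger Slc24a3 (0.94) and the kinase Camkk2 (0.94). Ackr4 was followed by the proteoglycan Sdc1 (0.92), the transcription factor Scx (0.91), Ldoc1 (0.90) and 4930447F24Rik (0.89). Lypd6 also belongs to the list of molecular layer interneuron markers used above.

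**Figure D3:**
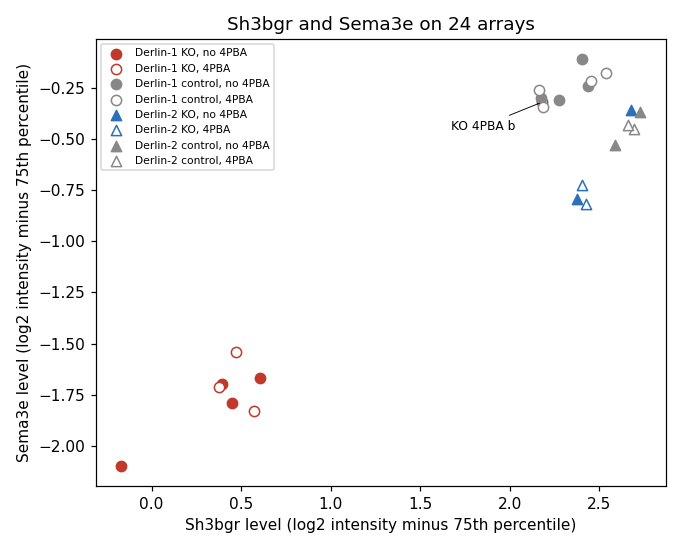
Sema3e level against Sh3bgr level (both log2 intensity minus the array's 75th percentile) on 24 arrays; red is Derlin-1 KO, blue Derlin-2 KO, grey controls, circles the Derlin-1 line, triangles the Derlin-2 line, open symbols 4PBA. The 7 Derlin-1 KO arrays at the lower left have Sh3bgr levels up to 0.60, and the array labelled KO 4PBA b lies among the controls with 2.18 and -0.32.

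Genes related to each of the 4 by family or pathway were measured beside them, 37 in all, from lists of family members, partners, ligands and regulators. Without 4PBA limma called 4 of the 37 (10.6% of all genes called), 1 lower and 3 higher. In the Derlin-1 comparison under 4PBA limma called 0 of 37 with all arrays (5 with an unadjusted p under 0.05). Without array b, also added after the data were seen, it called 3 (6.18% of all genes called), all higher: Csf1r by 0.61 (adjusted p 0.00528), the cytokine receptor subunit Il6st by 0.30 (adjusted p 0.0263) and the acid-sensing ion channel family member Asic4 by 1.22 (adjusted p 0.0130). Limma called 0 of 37 in the Derlin-2 comparisons with vehicle (9) and with 4PBA (2), in the difference between lines (1) and for 4PBA in the Derlin-2 line (4).

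The 3 other genes of the SH3BGR family, small proteins of the same fold, were not called: without 4PBA Sh3bgrl changed by 0.14, Sh3bgrl2 by 0.01 and Sh3bgrl3 by -0.05, and under 4PBA by 0.08, 0.07 and -0.04. Their SE ran from 0.06 to 0.09, against a change of -2.004 for Sh3bgr itself.

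Of the STAP2 partners 11 of 13 other genes were tested, 1 lower and 2 higher without 4PBA, with a median of 0.23 against -0.01 over all genes. Csf1r, the receptor of the microglial growth factor CSF1 and a member of the microglia list too, was higher in the KO, with 3.52 ± 0.02 against 2.83 ± 0.14 in the numbered series and 3.49 ± 0.08 against 2.81 ± 0.31 in the lettered series (SD, n = 2 each), a change of 0.69 (SE 0.15, adjusted p 0.0121). Jak2, a cytokine receptor kinase, rose by 0.32 (adjusted p 0.0301), and Stat5b fell by 0.18 on the log2 scale (adjusted p 0.040). Stat3, the best known partner of STAP2, changed by 0.28 with an adjusted p of 0.0539.

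Of the ACKR family and ACKR4 ligands 10 of 13 other genes were tested, with a median of 0.01 without 4PBA. Ccl25, a ligand of ACKR4, was higher by 0.52 (SE 0.12, adjusted p 0.0150): -0.33 ± 0.04 in numbered controls and 0.14 ± 0.08 in the KO, and -0.42 ± 0.26 and 0.15 ± 0.31 in the lettered series (SD, n = 2 each). Ccl19 changed by 0.73 with an adjusted p of 0.0781 and Ccl21a by -0.15. The scavenger receptors Ackr1, Ackr2 and Ackr3 changed by -0.07, -0.06 and 0.03, none of them called. The Ackr2 value averages opposite signs, with -4.06 ± 0.15 in the KO and -4.50 ± 0.17 in controls of the numbered series and -4.60 ± 0.16 and -4.05 ± 0.50 in the lettered series (SD, n = 2 each).

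Of the ENaC family and regulators 13 of 15 other genes were tested and limma called 0 without 4PBA, with a median of 0.07. Scnn1a, the alpha subunit, changed by -0.34 (SE 0.48), and the beta subunit gene Scnn1b did not pass the filter on dim probes and was not tested. Sgk1, a kinase that raises channel number at the membrane, changed by 0.61 (adjusted p 0.200), and Nedd4l, the ligase that removes the channel, by -0.16 (adjusted p 0.156).

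**Figure D4:**
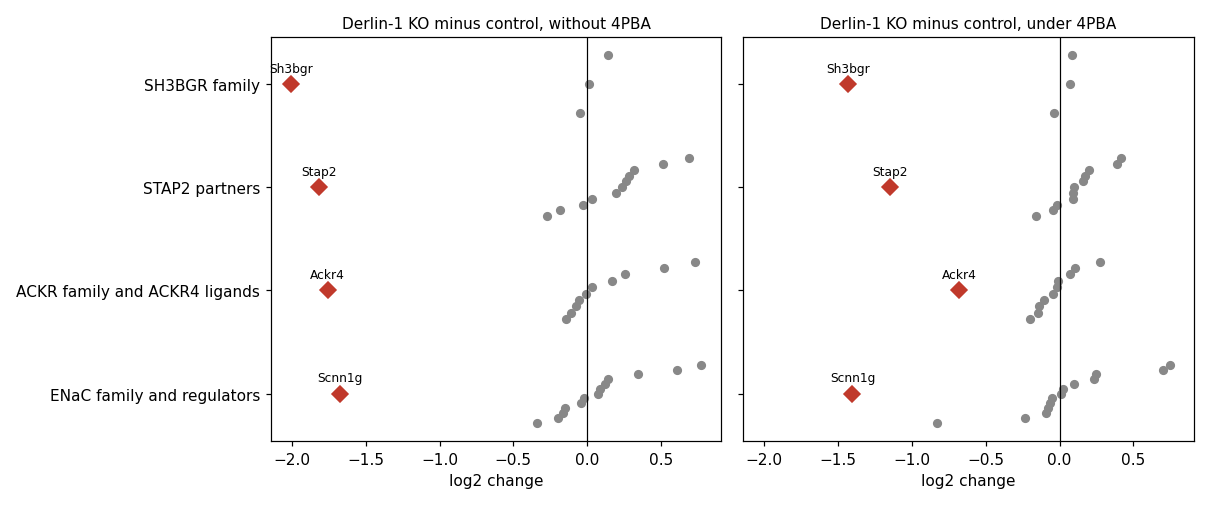
Change (log2 KO minus control, horizontal axis) of the 4 genes (red diamonds) and of the other tested genes of their 4 lists (grey points) in the Derlin-1 line, without 4PBA at left and under 4PBA at right. Without 4PBA the 4 genes lie from -2.004 to -1.67, and the 3 other SH3BGR family genes from -0.05 to 0.14.

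The genes next to Sh3bgr, Stap2 and Scnn1g on their chromosomes were read as well, the nearest 2 measured genes on each side in the reference gene table. Without 4PBA the neighbours of Sh3bgr on chromosome 16 (Get1, Lca5l, B3galt5 and Igsf5) changed by -0.15 to 0.08, and those of Stap2 on chromosome 17 (Shd, Fsd1, Mpnd and Sh3gl1) by -0.20 to 0.01. Those of Scnn1g on chromosome 7 (Hs3st2, Usp31, Cog7 and Gga2) changed by -0.17 to 0.55. The lowest adjusted p among these genes in the limma fit was that of Mpnd (0.0847).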

How the data were processed

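Total RNA of 24 cerebella samples (150 ng each) was amplified and labelled with Cy3 for single-colour Agilent arrays, per the labels' protocols. The deposited values are linear spot intensities (processed signals) made with Agilent Feature Extraction 10.7.1.1, per the submitters' processing notes, and the array design names build mm9, per the file headers. On the log2 scale the authors' deposited values matched the processed intensities to within 1.74e-06 for probes with 1 spot. Levels were computed on that scale from the scanner intensities, minus each array's 75th percentile, with control spots left out. Flagged outlier spots (52 to 637 per array) were then treated as missing, and spots of a probe were averaged; no spot was saturated. The 75th percentile ran from 890 to 1169.

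A probe was kept (38115 of 56605) when some group had it well above background on both arrays, and the probe of highest mean stood for each of 16935 genes; probes without a symbol (23611 on the array) stayed out. limma 3.58.1 in R 4.3.3, with data.table (version 1.17.8), fitted 12 group means over all arrays, with 12 residual and 2.13 prior degrees of freedom. Derlin-1 effects were averaged over both series, each within its slide. P-values were adjusted by Benjamini-Hochberg over all genes (threshold 0.05), and intervals are 95%. The pipeline was tested on simulated data.

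The 4 genes, the gene lists and the tests were chosen with earlier results of these data known. Named are the 4 genes, genes of their 4 family and pathway lists, the genes next to them in the order of falls, the 5 most correlated genes for each and the nearest 2 neighbours on each side; the neighbours of Ackr4 are not reported here. Alternatives were quantile and median scaling, normexp correction on median signals (offset 50), other filters, every probe, fewer groups, each series alone, a replicate block and each array left out. Whether equal replicate numbers pair arrays was checked: correlations of same-numbered deviations ran from -0.16 to 0.40.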

Additional observations from a re-analysis of the deposited data

Results flagged for a closer look

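For Ackr4 under 4PBA the values had opposite signs in the lines, though neither passed the threshold with all arrays. KO minus control was -0.51 in the numbered Derlin-1 series and -0.85 in the lettered Derlin-1 series, against 0.18 in the Derlin-2 line, on a log2 scale. The difference averaged over both series was tested in the limma fit and was -0.85 (SE 0.41) with an adjusted p of 1.0, or -1.18 with an adjusted p of 0.137 when array b, labelled Derlin-1 KO 4PBA b, was left out. Under the alternatives that kept both arrays of every group, each series alone included, its adjusted p was 0.988 or higher.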

How the results depend on the processing

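The number of arrays, 2 a group, limits the precision, and the Scnn1g probe was not well above background on 1 of 24 arrays. The members kept their direction and side of the threshold in 188 tests under alternatives that left out no single array and not in 3. The 3 were Scnn1g in the Derlin-1 line under 4PBA, -1.46 with an adjusted p of 0.0371 under each of quantile normalization and median scaling, and the effect of 4PBA on Sh3bgr in the Derlin-2 line, 0.0072 under quantile normalization. Without 4PBA, normexp correction gave -0.98 for Ackr4 and -0.86 for Scnn1g. In the Derlin-1 line under 4PBA, alternatives that left out no single array gave -0.85 to -0.40 for Ackr4 and -1.63 to -0.66 for Scnn1g. Scnn1g had no value when probes had to be well above background on all arrays. The causes were not tested.

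Genes called, in the order Derlin-1 under 4PBA, Derlin-2 with vehicle, Derlin-2 under 4PBA, the difference between lines and 4PBA in the Derlin-2 line, were 15, 31, 45, 31 and 2400 with no filter on dim probes, and 1, 2, 7, 0 and 2 with probes well above background on all arrays (the 0 by limma had 471 at an unadjusted p under 0.05). With every probe they were 24, 46, 65, 36 and 66 probes. Quantile normalization gave 19 for the difference and 35 for 4PBA in the Derlin-2 line. Median scaling, which moved the median of all genes to -0.12 without 4PBA, -0.12 in the Derlin-2 line under 4PBA and -0.26 for 4PBA in that line, gave 13 in the Derlin-1 line under 4PBA and 207 for 4PBA in the Derlin-2 line. Normexp correction gave 0 in the Derlin-1 line under 4PBA by limma (2112 at an unadjusted p under 0.05), 6 in the Derlin-2 line with vehicle and 6 for 4PBA in that line. Fits of only the groups compared called 726 genes in Derlin-1 without 4PBA, 3 under 4PBA, 1 in Derlin-2 with vehicle, 0 under 4PBA (limma, 1133 at an unadjusted p under 0.05) and 1 for the difference, all with fewer samples. Without 4PBA the numbered series alone called 2 genes and the lettered series 599; with 4PBA the lettered series called 4, and its difference from the Derlin-2 line 7.

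With the replicate number as a block, which these data do not show to pair arrays, 2187 genes were called in Derlin-1 without 4PBA, 11 under 4PBA, 22 and 20 in the Derlin-2 comparisons, 14 for the difference and 18 for 4PBA in the Derlin-2 line, and no call on the 4 genes changed.

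Leaving out each array of a comparison in turn gave 654 to 2788 genes called without 4PBA, 8 to 1047 in Derlin-1 under 4PBA, 20 to 82 and 41 to 60 in the Derlin-2 comparisons, 12 to 109 for the difference and 20 to 46 for 4PBA in the Derlin-2 line. Changes under 4PBA in the Derlin-1 line ran from -1.88 to -0.98 for Sh3bgr, -1.62 to -0.68 for Stap2, -1.001 to -0.35 for Ackr4 and -1.80 to -1.00003 for Scnn1g, with all calls arising without array a or b. The difference between lines ran from -1.62 to -0.72 for Sh3bgr and -1.92 to -1.11 for Scnn1g. In the Derlin-2 line with vehicle the changes ran from -0.28 to 0.024 for Sh3bgr and -0.49 to 0.044 for Stap2, and under 4PBA from -0.079 to 0.31 for Scnn1g. For 4PBA in the Derlin-2 line they ran from -0.12 to 0.033 for Sh3bgr and -0.16 to 0.11 for Stap2.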
